A study of Homo sapiens with 10 samples.

Results

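Cytosolic ribosomal protein genes encode the protein part of the ribosomes that translate nuclear mRNAs. They were taken from the expression table by their symbols, RPL or RPS followed by a number and, where present, an ending that marks a second copy or a paralog, together with RPLP0, RPLP1, RPLP2 and RPSA. Pseudogenes and the RPS6 kinases were left out by this rule. Of 60642 gene symbols in the table, 84 were members: 77 core genes, 46 of the large and 31 of the small subunit, and 7 paralogs that resemble a core gene (RPS27L, RPL22L1, RPL39L, RPL7L1, RPL26L1, RPL3L and RPL10L). One member, RPL3L, did not reach 1 TPM in any sample and was not tested, so 83 members entered the tests.

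Human prostate cancer cell lines, 5 in number, were compared by bulk RNA-seq of polyA-enriched RNA: LNCaP, DUCAP, VCAP, DU145 and PC3. All were untreated, in exponential growth and cultured in medium with fetal bovine serum (FBS). Each line had 2 biological repeats, 10 samples in all, and no control group exists, so each line was compared with the mean of the other 4. The values are TPM, a transcript abundance that corrects for gene length and expresses each gene as a share of its sample. Each line stands for 1 established culture and not for a class of tumors. A p-value here speaks of the spread between repeats, pooled over the 5 lines, and not of the spread within a single line. TPM keep no record of sequencing depth, so the reads behind each value are unknown. In such bulk samples fewer cells of a kind and less RNA per cell cannot be told apart.

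A ribosome has a small subunit, which reads the mRNA, and a large subunit, which joins amino acids. Cells make the ribosomal proteins in matched amounts, and their mRNAs typically begin with a stretch of pyrimidines, the 5′ terminal oligopyrimidine (TOP) motif, through which mTOR signaling and LARP1 control their translation. A few core genes have paralogs whose expression is restricted by tissue or regulated on its own. RPS27L is a known p53 target, RPL22L1 is known to be repressed by RPL22, and RPL10L, RPL39L and RPL3L are best known from testis and, for RPL3L, striated muscle.

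The TOP motif was looked for in the RefSeq windows around annotated transcript starts (GRCh38.p14), which matched 67 of the 84 members. The motif was a C followed by at least 4 further C or T, on the transcribed strand only. The 62 core genes with a window had 77 windows, since some have several annotated starts. In 46 windows (59.7%) the annotated start base was itself such a C, often inside a longer run. In 57 windows (74.0%) one lay within 5 bases of it. By gene, 46 and 53 of the 62 had such a window. Over all 35116 windows of the same length the shares were 4.07% and 21.1%. Among the paralogs 1 of 6 windows held it (16.7%), and in the windows of mitochondrial ribosomal proteins the shares were 7.06% and 20.0%. The sequences of 4 paralogs and of the core genes on which the results turn most are shown with 15 bases before the annotated start and 15 from it on, 5′ to 3′, and capitals mark the pyrimidine run found within 5 bases of the start. A match is a description of these letters and not a measured translation site.

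RPL22, chr1:6199581-6199610, minus strand: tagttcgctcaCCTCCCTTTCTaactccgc
RPL22L1, chr3:170870181-170870210, minus strand: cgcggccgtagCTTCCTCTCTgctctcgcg
RPL26, chr17:8383179-8383208, minus strand: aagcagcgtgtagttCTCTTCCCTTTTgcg
RPL26L1, chr5:172958714-172958743, plus strand: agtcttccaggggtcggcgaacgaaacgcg
RPS27, chr1:153990747-153990776, plus strand: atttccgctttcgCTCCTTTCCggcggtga
RPS27L, chr15:63157463-63157492, minus strand: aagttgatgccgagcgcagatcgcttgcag
RPL10L, chr14:46651767-46651796, minus strand: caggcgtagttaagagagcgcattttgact
RPL7A, chr9:133348203-133348232, plus strand: ccacaattccCTTTCCTTTCTCTCTCCTCC
RPS6, chr9:19380222-19380251, minus strand: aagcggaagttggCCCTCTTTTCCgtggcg
RPS24, chr10:78033848-78033877, plus strand: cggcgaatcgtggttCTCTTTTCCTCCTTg

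The paralogs RPS27L, RPL26L1 and RPL10L thus lacked the run in these windows, whereas RPL22L1 carried one as its parent RPL22 did.

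The labelled cell type was checked first. The epithelial keratins KRT8 and KRT18 and the adhesion gene EPCAM were expressed in all 10 samples, at 23.4 TPM or more. A further listed epithelial marker, CDH1, is not reported here. The median difference of the 4 epithelial markers ranged from −1.33 in PC3 to 0.88 in DU145, so their levels differed between lines. The leukocyte markers PTPRC and CD3E did not exceed 0.12 TPM, and PECAM1, COL1A2 and DCN stayed at or below 0.79 TPM, while VWF reached 5.45 TPM in LNCaP and COL1A1 38.0 TPM in PC3. KLK3, the gene of prostate-specific antigen, lay at 1636 TPM or more in LNCaP and DUCAP, at 45.3 and 28.3 TPM in VCAP, and below 1 TPM in DU145 and PC3.

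Ribosomal protein genes took up the largest share of the transcript pool in DUCAP and the smallest in PC3. In the DUCAP repeats the 84 members held 22.4 and 21.5% of the summed TPM. The values were 18.0 and 19.1% for LNCaP, 17.7 and 17.8% for VCAP, 14.7 and 14.4% for DU145, and 12.3 and 11.9% for PC3. The repeats of DUCAP lay above all others, those of PC3 below all others, and LNCaP and VCAP did not overlap but lay close together. The mitochondrially encoded (MT-) genes took 12.7 to 36.0% of the TPM, most in DUCAP and VCAP, so the shares were also computed without them. On that scale the members held 34.8 and 31.6% for DUCAP, 27.7 and 27.1% for VCAP, 22.4 and 23.5% for LNCaP, 19.0 and 17.0% for DU145, and 14.1 and 14.0% for PC3. VCAP then lay above LNCaP, and the other lines kept their places. Nearly all of the sum came from the core genes, and the small subunit contributed less per unit of the large subunit in LNCaP (ratio of the sums 0.634 and 0.624) than in the other 8 samples (0.702 to 0.777).

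**Figure D1:**
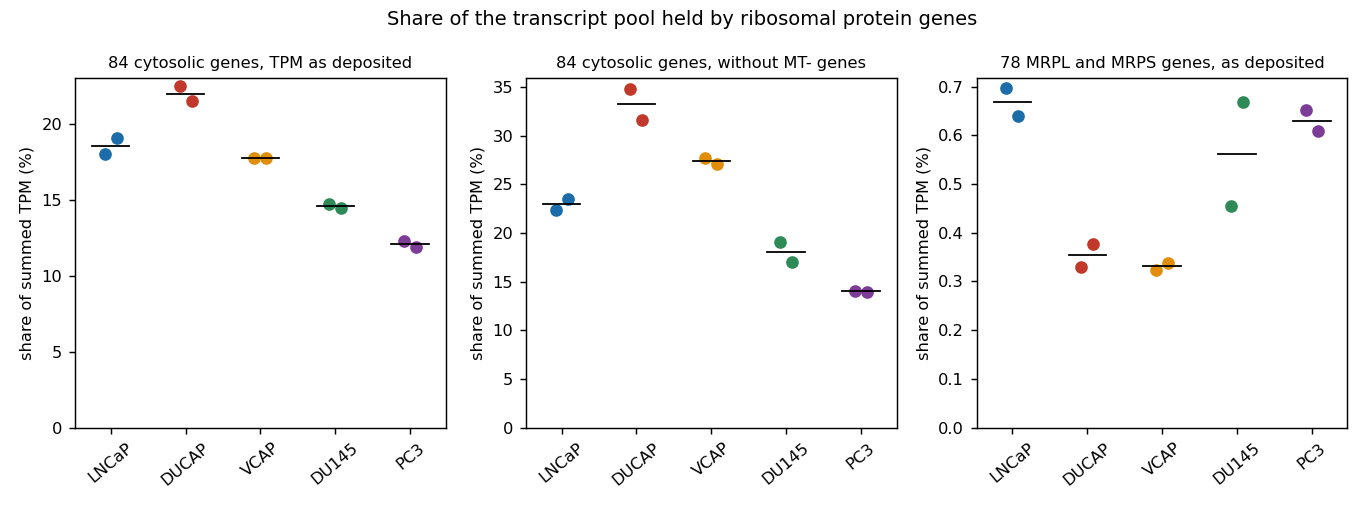
Share of the summed TPM, in percent, held by the 84 cytosolic ribosomal protein genes as deposited (left), by the same genes with MT- genes taken out of the total (middle), and by the 78 nuclear genes of the mitochondrial ribosome (right), with 1 point per sample and a line at the mean of the 2 repeats. The cytosolic share falls from DUCAP (22.4 and 21.5%) to PC3 (12.3 and 11.9%), whereas the mitochondrial share is lowest in VCAP and DUCAP.

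The core genes were among the most abundant transcripts in every sample, but their order differed between lines. Their median level lay between 1187 TPM in a PC3 repeat and 2238 TPM in a DUCAP repeat, and 40 to 66 of them stood among the 100 highest genes of a sample. The highest core gene was RPS2 in LNCaP, RPS18 in DUCAP, RPS27 in DU145 and RPS24 in PC3. By mean TPM over all samples RPS27, RPL41, RPS24 and RPS18 ranked highest (5804, 5155, 4936 and 4930 TPM). Across the 77 core genes, which are not independent replicates, the log2 levels of 2 repeats of a line correlated at r = 0.950 to 0.998, and those of samples from different lines at r = 0.457 to 0.928, lowest between DUCAP and PC3 and highest between DUCAP and VCAP.

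All 83 tested members, of which RPL39L and RPL10L passed the filter only through the lines that express them, differed among the 5 lines in the limma F-test (adjusted p under 0.05), where 90.8% of all tested genes did so (89.3% on the scale without MT- genes, with 83 members again). With a range of the line means of at least 1 on the log2 scale as well, 62 members (74.7%) were called, against 80.8% of all tested genes. The median range of the core genes was 1.32 on the log2(TPM + 1) scale, and that of all tested genes was 1.69. The narrowest range among the core genes was that of RPS7 (0.46) and the widest that of RPL7A (2.68). The call was closest to the threshold for RPL28 (adjusted p = 0.0438, limma).

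Counted gene by gene, DUCAP had the highest mean of the 5 lines for 33 of the 77 core genes and LNCaP for 29. PC3 had the lowest mean for 40 and DU145 for 19. Each line was then tested against the other 4, and the counts are set beside the share of all genes called in the same direction. These 5 comparisons share samples and are not independent of each other.

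In DUCAP, 46 members were higher than in the other lines and 12 lower, while 11.1% and 57.7% of all tested genes were. In PC3, 14 were higher and 55 lower (backgrounds 43.2% and 24.7%). LNCaP had 46 higher and 14 lower (38.2% and 24.2%), VCAP 31 and 25 (17.3% and 46.6%), and DU145 13 and 34 (40.7% and 22.3%). The share of members higher in DUCAP, 55.4%, and the share lower in PC3, 66.3%, thus stood above the respective backgrounds. RPL39L and RPL10L are in the counts of every line, here and without MT- genes. Both passed the filter only through the lines that express them, so their calls were favored by the filter. Among the lower counts, those of LNCaP and DUCAP each fell when either repeat of its line was left out. Such a fit has less power, so the fall does not show that the counts rest on a particular library.

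Without MT- genes, DUCAP had 58 members higher and 6 lower (backgrounds 14.6% and 47.8%) and VCAP 47 and 15 (24.0% and 36.2%). LNCaP had 39 and 18 (33.8% and 26.6%), DU145 10 and 44 (36.0% and 25.3%), and PC3 8 and 63 (35.3% and 29.3%). The median log2 difference of the core genes was 0.46 in DUCAP as deposited and 0.69 without MT- genes, and in PC3 it was −0.67 and −0.91. Under quantile normalization and median-ratio scaling the core medians were 0.17 and 1.11 in DUCAP, −0.49 and −1.05 in PC3, and 0.30 and 0.0032 in LNCaP, where it was 0.32 as deposited. All tested genes had a median of −0.54 in DUCAP and 0.26 in PC3 as deposited, −0.41 and 0.067 without MT- genes, −0.0020 and −0.12 under quantile normalization, and −0.12 and −0.0018 with no filter on low values. In PC3 the median of all genes thus changed sign with these choices, and that of the core genes did not.

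**Figure D2:**
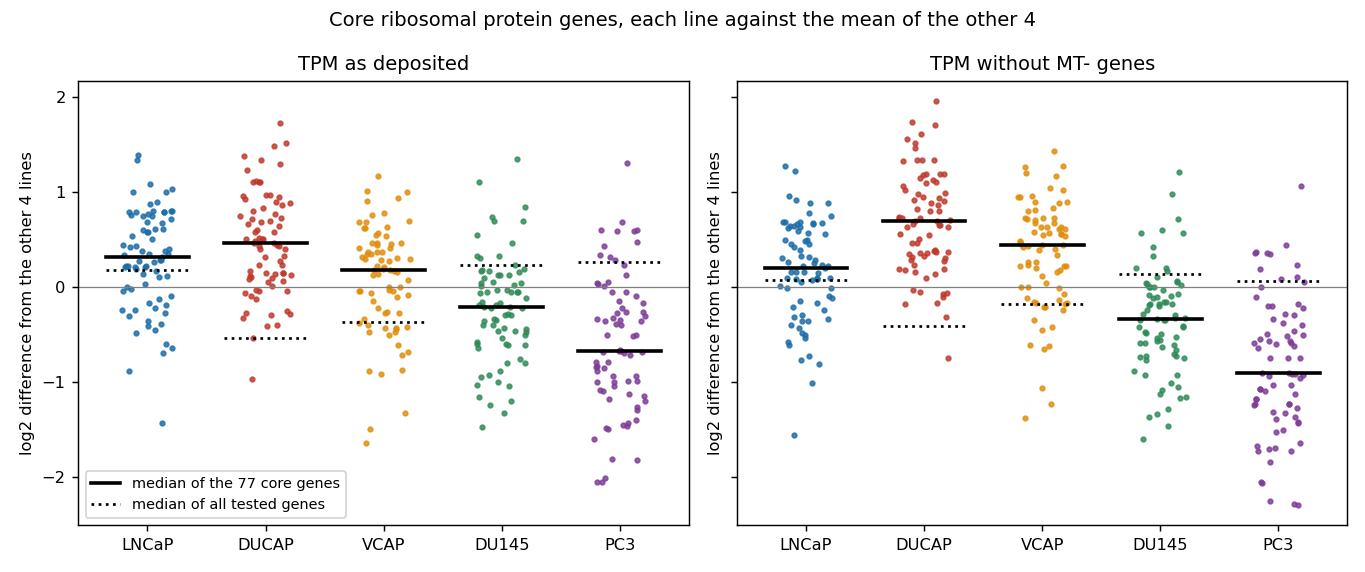
Log2 difference of each of the 77 core genes between a line and the mean of the other 4 lines, on the log2(TPM + 1) scale, for TPM as deposited (left) and without MT- genes (right). Each point is a gene, solid lines mark the core median and dotted lines the median of all tested genes. The core median lies above that of all genes in DUCAP (0.46 against −0.54) and below it in PC3 (−0.67 against 0.26).

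Because a scaling can move all members at once, the calls were also counted under all 5 scalings used: as deposited, without MT- genes, quantile normalization, median-ratio scaling, and equal summed TPM of the members. Under every one of them 34 members were lower in PC3 and 3 higher (RPL39L, RPS24 and RPL26L1). In DUCAP 22 were higher and 5 lower, in VCAP 21 and 12, in LNCaP 27 and 10, and in DU145 8 and 23. RPL39L and RPL10L are in the counts of every line. Both stay at or near 0 outside the lines that express them, whatever the scaling, so their calls do not test the scaling. Over all genes the numbers higher and lower under every scaling were 4960 and 2645 for PC3, 1051 and 4945 for DUCAP, 2540 and 5456 for VCAP, 4661 and 4020 for LNCaP, and 4714 and 2984 for DU145. The scalings tested between 17321 and 18288 genes, of which 83 were members. Since the number tested differed, no shares are given, and these counts alone do not set the members apart from all genes.

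**Figure D3:**
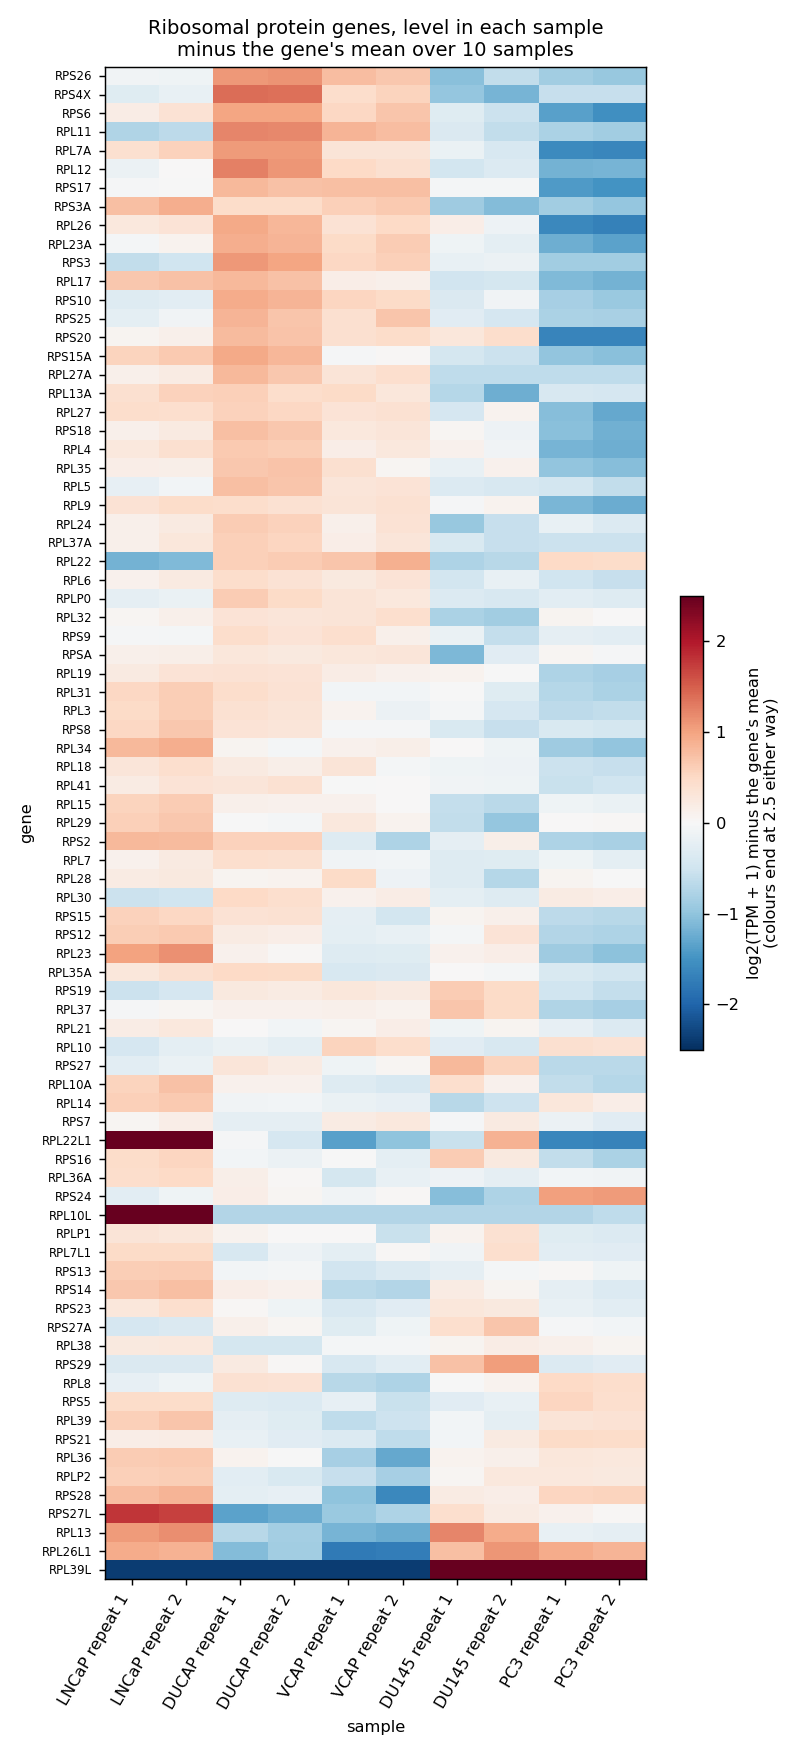
Level of the tested members that are reported here (vertical axis) in the 10 samples (horizontal axis), as log2(TPM + 1) minus the mean of the gene, with red above and blue below the mean and colors ending at 2.5 either way, beyond which the most restricted paralogs lie. Rows are sorted by the differences of PC3 and DU145 minus those of DUCAP and VCAP. The red block of DUCAP and VCAP at the top therefore follows from the row order. The repeats of a line resemble each other, and RPL39L, RPL22L1 and RPL10L stand out.

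Among the proteins of the small subunit, RPS24 set PC3 apart. This protein of the small subunit, mutated in some patients with Diamond-Blackfan anemia, reached 9089 and 9306 TPM in PC3, against 5026 and 4602 for DUCAP, 4191 and 4577 for VCAP, 3711 and 4137 for LNCaP, and 2124 and 2603 for DU145. No other sample came near the PC3 repeats, and the DU145 repeats were the lowest. The difference of PC3 from the other lines was 1.3 ± 0.11 (SE) on the log2 scale (adjusted p = 1.5e-05, limma). RPS21 was likewise highest in PC3, at 1488 and 1473 TPM against 688 to 1239 elsewhere (0.59, adjusted p = 0.0015, limma), a call that was lost under median-ratio scaling (0.21, adjusted p = 0.14).

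RPS6, the substrate of the S6 kinases downstream of mTOR, was lowest in PC3. Its level was 903 and 796 TPM there, 1868 and 1588 in DU145, 2651 and 2971 in LNCaP, 3331 and 3738 in VCAP, and 4590 and 4600 in DUCAP, so the 5 lines did not overlap. The difference was −1.81 ± 0.11 (SE) in PC3 and 1.24 ± 0.11 in DUCAP (adjusted p = 2.0e-06 and 2.7e-05, limma). RPS20 showed the largest decrease of a core gene in PC3, to 415 TPM in both repeats against 1359 to 2264 elsewhere (−2.05 ± 0.08, adjusted p = 3.1e-07, limma).

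RPS4X, encoded on the X chromosome at chrX:72272042-72277248, was highest in DUCAP and lowest in DU145. It lay at 2881 and 2822 TPM in DUCAP, 1482 and 1611 in VCAP, 890 and 954 in LNCaP, 735 and 728 in PC3, and 555 and 490 in DU145. DUCAP exceeded the other lines by 1.73 ± 0.09 (SE) on the log2 scale and DU145 fell short of them, with a difference of −1.33 ± 0.09 (adjusted p = 2.3e-06 and 5.1e-06, limma).

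RPS29, RPS27 and RPS27A, which are small zinc-binding proteins of the small subunit, were highest in DU145. RPS29 was at 3174 and 3930 TPM there and at 1440 to 2216 in the other 8 samples (1.11 ± 0.11, adjusted p = 4.5e-05, limma). RPS27 was at 9641 and 8065 TPM in DU145 and at 3434 to 6844 elsewhere (0.85 ± 0.10, adjusted p = 0.00016, limma). RPS27A, made as a fusion with ubiquitin, was at 1529 and 1829 TPM in DU145 and at 851 to 1237 in the other samples (0.70 ± 0.10, adjusted p = 0.00041, limma). RPS28, in contrast, was lowest in VCAP, at 437 and 287 TPM against 751 to 1584 elsewhere, with a difference of −1.65 ± 0.14.

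The repeats of DU145 differed more from each other than those of the other lines, with a median gap of 0.18 on the log2 scale over the core genes against 0.063 to 0.096. RPSA, also known as the laminin receptor, showed the widest gap among the core genes, at 839 and 1504 TPM in DU145. It lay at 1798 to 2260 TPM in the other lines, above both DU145 repeats (−0.88 ± 0.18, adjusted p = 0.0031, limma). The DU145 repeats of the paralogs RPL22L1 (66.1 and 179 TPM) and RPL39L (40.6 and 87.5 TPM) lay further apart still on the log2 scale.

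In the large subunit, RPL7A and RPL26 had the widest ranges of the core genes. RPL7A (chr9:133348218-133351426) lay at 968 and 946 TPM in PC3, 2623 and 2214 in DU145, 3679 and 3675 in VCAP, 3875 and 4365 in LNCaP, and 6154 and 6127 in DUCAP. RPL26, at chr17:8377516-8383193, was at 1069 and 1013 TPM in PC3 and at 2957 to 6254 in the other 8 samples. Both were lower in PC3 by a similar amount, with differences of −2.01 ± 0.10 and −2.05 ± 0.11 (SE, adjusted p = 6.7e-07 and 1.0e-06, limma).

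RPL5 and RPL11, which can bind MDM2 outside the ribosome and thereby stabilize p53, were both highest in DUCAP. RPL11 was at 4977 and 4876 TPM there, 3837 and 3624 in VCAP, and between 1166 and 1649 in the 6 samples of LNCaP, DU145 and PC3. Its difference in DUCAP was 1.52 ± 0.09 (adjusted p = 5.8e-06, limma). RPL5 was at 2075 and 2001 TPM in DUCAP, 1535 and 1571 in VCAP, and between 808 and 1188 elsewhere, with a difference of 0.90 ± 0.09 in DUCAP.

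RPL13 divided the lines in another way. It was at 2401 and 2582 TPM in LNCaP and 2677 and 2192 in DU145, at 1005 and 982 in PC3, at 708 and 634 in DUCAP, and at 515 and 485 in VCAP. LNCaP and DU145 overlapped, and the other lines lay apart below them. The difference of VCAP was −1.50 ± 0.10 (adjusted p = 9.7e-06, limma), so RPL13 ran against the majority of core genes in DUCAP, where its difference was −0.97 on the log2 scale.

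The proteins of the stalk, through which elongation factors reach the ribosome, did not move together. RPLP0, its base, was highest in DUCAP (6366 and 5674 TPM) and ranged from 3113 to 5090 TPM in the other samples, whereas RPLP2 was highest in LNCaP (1655 and 1679 TPM) and lowest in VCAP (729 and 612 TPM). RPLP1 had a narrow range of 0.63 between line means, and the VCAP repeats alone differed by 1678 against 1139 TPM. RPL38 was lowest in DUCAP (1066 and 1068 TPM against 1382 to 1722), but its difference of −0.54 became 0.11 under median-ratio scaling. RPL30 was lowest in LNCaP, at 2379 and 2457 TPM against 2754 to 4893 elsewhere.

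RPL22 and its paralog RPL22L1 changed places in LNCaP. RPL22, at chr1:6185020-6199595, had 337 and 354 TPM in LNCaP, 449 and 471 in DU145, 1083 and 1056 in PC3, 1162 and 1185 in DUCAP, and 1244 and 1429 in VCAP. RPL22L1, at chr3:170864875-170870195, had 777 and 681 TPM in LNCaP, 66.1 and 179 in DU145, 30.8 and 30.0 in PC3, 95.3 and 72.7 in DUCAP, and 37.5 and 47.7 in VCAP. LNCaP was thus the only line in which the paralog exceeded the parent, and the line with the least RPL22.

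RPL22L1 made up 69.7 and 65.8% of the pair's TPM in LNCaP, 12.8 and 27.6% in DU145, and between 2.77 and 7.58% in DUCAP, VCAP and PC3. The log2 ratio of paralog to parent spanned 6.16 between the line means, and an exact permutation test over all ways of putting 10 samples into 5 pairs gave p = 0.0021 after adjustment over the 6 pairs tested. In limma RPL22L1 was higher in LNCaP by 3.61 ± 0.31 and RPL22 lower, with a difference of −1.44 ± 0.09 (SE, adjusted p = 2.4e-05 and 4.0e-06). One processed pseudogene row, RPL22P1, followed RPL22 with 96.8 TPM in LNCaP and up to 734 TPM in VCAP, and reads of the parent and the pseudogene may be split between them by the counting.

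RPL39L was found in 2 of the 5 lines. This paralog of RPL39, at chr3:187120948-187139496, had 40.6 and 87.5 TPM in DU145 and 60.1 and 57.7 TPM in PC3, and was listed at 0 in all 6 samples of LNCaP, DUCAP and VCAP. The levels of DU145 and PC3 overlapped. The parent RPL39 was present in every line at 1052 to 2613 TPM, so RPL39L made up 2.56 to 5.97% of the pair where it was found.

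RPL10L was restricted to LNCaP. It had 10.6 and 12.3 TPM there, 0.07 TPM in 1 PC3 repeat, and was listed at 0 in the other 7 samples, while its parent RPL10 lay between 1196 and 2371 TPM. Even in LNCaP it made up no more than 0.896% of the pair. RPL3L did not exceed 0.27 TPM in any sample, against 1481 to 3585 TPM for RPL3.

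RPS27L was highest in LNCaP and lowest in DUCAP. At chr15:63148249-63157477, it had 247 and 235 TPM in LNCaP, 94.7 and 81.8 in DU145, 76.3 and 72.7 in PC3, 37.0 and 41.3 in VCAP, and 27.3 and 29.3 in DUCAP, without overlap between lines. Its difference was 2.19 ± 0.10 in LNCaP and −1.62 ± 0.10 in DUCAP (SE, adjusted p = 9.7e-07 and 5.5e-06, limma). Its share of the pair with RPS27 fell from 5.12% in a LNCaP repeat to 0.398% in a DUCAP repeat (adjusted p = 0.0021, exact permutation test of the ratio).

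RPL26L1 was lowest in VCAP and DUCAP. It had 14.0 and 14.3 TPM in VCAP and 23.0 and 26.9 in DUCAP, against 85.1 to 108 TPM in the 6 samples of LNCaP, DU145 and PC3, which overlapped. In PC3, where RPL26 was lowest, it reached 8.27 and 8.25% of the pair, against 0.310 to 3.53% elsewhere (adjusted p = 0.0048, exact permutation test of the ratio). RPL7L1 varied least, from 84.4 to 156 TPM, and its ratio to RPL7 spanned 1.16 on the log2 scale (adjusted p = 0.016, exact permutation test).

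**Figure D4:**
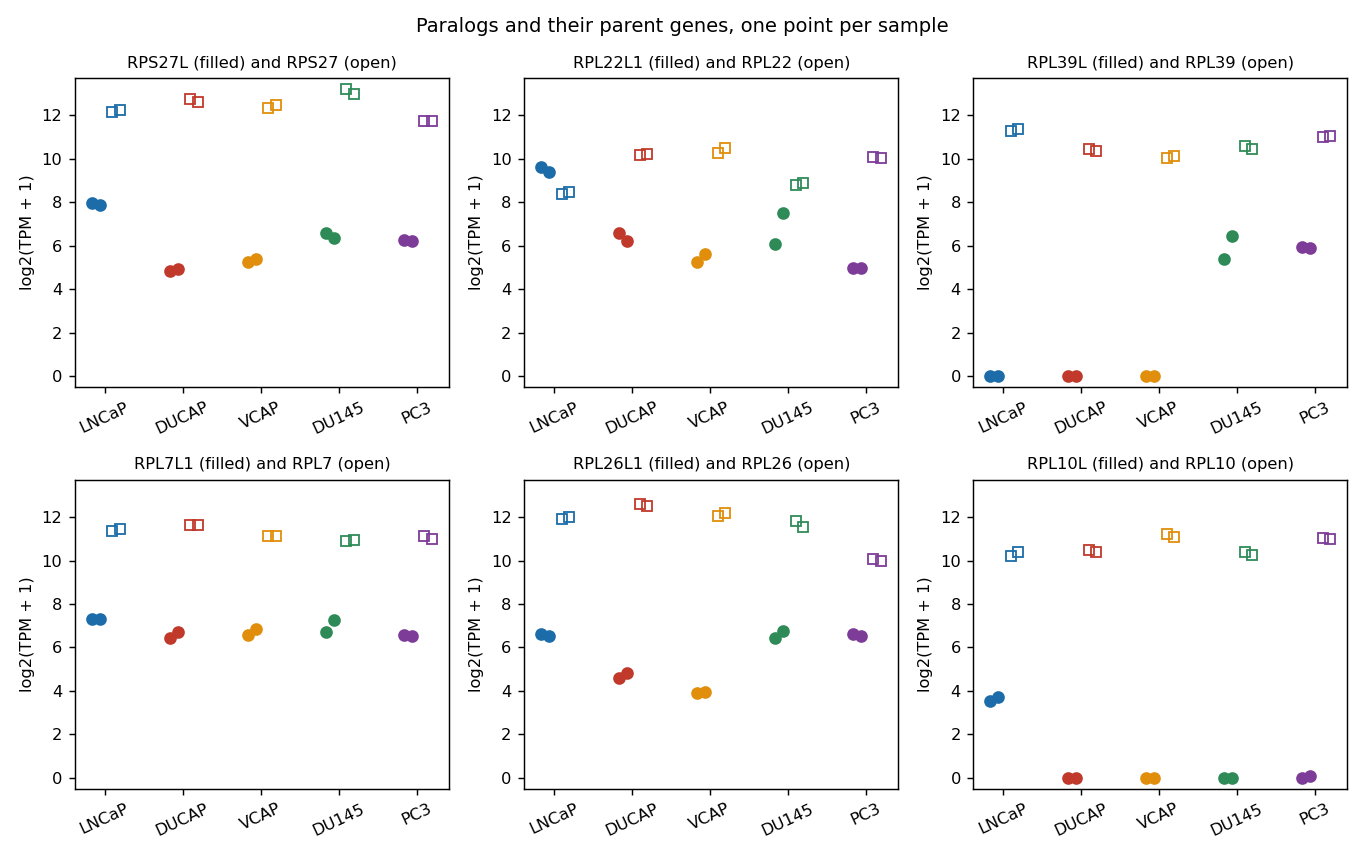
Log2(TPM + 1) of 6 paralogs (filled circles) and their parent genes (open squares) in each of the 10 samples, by line. RPL39L is at 0 in LNCaP, DUCAP and VCAP, RPL10L lies above 10 TPM in LNCaP only, and RPL22L1 is above RPL22 in LNCaP only.

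Other genes of translation were set beside the members from lists compiled by role, and their counts have the same backgrounds over all tested genes (38.2% higher and 24.2% lower in LNCaP, 11.1% and 57.7% in DUCAP, and 43.2% and 24.7% in PC3). Of the 4 further cytosolic ribosomal proteins, RPL36AL stood at 1184 and 1224 TPM in DU145 and 219 to 605 elsewhere, and RACK1, a scaffold of the small subunit, at 3977 and 3685 in DUCAP against 1488 and 1325 in PC3. Of 14 elongation factors, 7 were higher in LNCaP and none lower, and in DUCAP 5 were higher and 5 lower. EEF2, which moves the ribosome along the mRNA, had 5672 and 5471 TPM in DUCAP and 916 and 902 in PC3 (−1.76 ± 0.14 in PC3, adjusted p = 1.4e-05, limma). EIF5A2 stayed at 12.4 TPM or less in all samples.

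Initiation factors and biogenesis genes had another order. Of 39 initiation factors 8 were higher and 17 lower in DUCAP, and 17 higher and 9 lower in PC3. Of 73 ribosome biogenesis genes 5 were higher and 31 lower in DUCAP, and 17 and 8 in PC3, with median differences of −0.44 and 0.30. EIF6, which keeps the subunits apart, had 58.5 and 62.7 TPM in DUCAP and 387 and 331 in PC3, and NMD3, the export adaptor of the large subunit, 20.4 and 24.1 in DUCAP and 111 and 123 in PC3. Both medians lay on the side of all tested genes (−0.54 and 0.26).

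The regulators of TOP mRNAs held 1 gene with a very restricted level. EIF4EBP3, an inhibitor of cap-dependent initiation, had 101 and 113 TPM in LNCaP and at most 4.51 TPM in the other samples (5.69 ± 0.13, adjusted p = 4.6e-08, limma). Of the 14 regulators, 5 were higher and 2 lower in LNCaP, and 2 higher and 8 lower in DUCAP. RPTOR, a subunit of mTORC1, was at 29.1 and 30.0 TPM in PC3 and at 4.41 to 15.8 elsewhere.

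The nuclear genes of the mitochondrial ribosome were mostly lower in DUCAP and VCAP, whereas most of all tested genes were lower in DUCAP only. Of 78 such genes 4 were higher and 48 lower in DUCAP (61.5% lower, against 57.7% of all tested genes) and 2 higher and 54 lower in VCAP (69.2%, against 46.6%). In LNCaP 51 were higher and 2 lower (65.4% higher, against 38.2%), and in PC3 41 and 10 (52.6%, against 43.2%), so the shares in DUCAP and PC3 lay near the background. Without MT- genes the counts were 50 and 5 for LNCaP, 8 and 41 for DUCAP, 7 and 43 for VCAP, and 33 and 18 for PC3. MRPL55 was at 4.26 and 4.28 TPM in DUCAP, 3.48 and 4.98 in VCAP, and 55.7 to 146 in the other lines, and MRPL41 at 13.8 and 14.9 TPM in DUCAP against 227 and 200 in LNCaP.

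Since RPS27L is a p53 target, 24 further p53 targets were counted. In LNCaP 19 were higher (79.2%, against 38.2% of all tested genes) and 1 lower, with a median difference of 1.44. In DUCAP 3 were higher and 20 lower (83.3%, against 57.7%), with a median of −1.11, and in PC3 12 were higher and 7 lower (29.2%, against 24.7%). GDF15 was at 481 and 549 TPM in LNCaP, 337 and 144 in PC3, and at most 23.1 elsewhere. PHLDA3 was at 50.3 and 37.9 TPM in LNCaP, 54.2 and 36.5 in PC3, 33.2 and 17.2 in DU145, and at or below 0.29 TPM in DUCAP and VCAP. The levels of PHLDA3 in LNCaP and PC3 overlapped.

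The members lie on 21 chromosomes, and the medians differed between them. The 12 core genes of chromosome 19 had a median difference of −0.32 in PC3, the 6 of chromosome 17 −1.33, the 4 of chromosome 9 −1.63 and the 4 of the X chromosome 0.17. Rows of ribosomal protein pseudogenes, 1143 in number, of which 141 reached 1 TPM, held 0.461 to 1.07% of the TPM, most in DUCAP and least in PC3, as was the case for the members. For the median member the pseudogene sum did not exceed 0.565% of the parent, but it reached 74.4% for RPL23A, 51.5% for RPL22 and 28.3% for RPL3, whose levels are uncertain to that extent.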

How the data were processed

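Bulk RNA-seq of 5 prostate cancer lines, 2 repeats each, was used. Per the labels and methods, the authors assessed reads with FastQC 0.11.9, trimmed them with Trim Galore 0.6.5, aligned them with STAR 2.7.2b to GRCh38 and quantified genes with RSEM 1.3.3. The deposited values are TPM per gene symbol, not pooled and with no scaling between samples stated. How rows sharing a symbol were merged is not given in the sources used here. Column sums were 982880 to 991998 TPM, and depth is unknown, so no counting interval was computed.

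Groups and repeat numbers came from the labels. Genes reaching 1 TPM in 2 or more samples (17520, or 18288 after rescaling without MT- genes) were tested on log2(TPM + 1) with limma 3.58.1 (R 4.3.3), using a coefficient for each line, a trend in the prior variance, a two-sided F-test over the lines and 5 contrasts of a line against the mean of the other 4, each with Benjamini-Hochberg adjustment over all tested genes at 0.05. Differences on this scale understate those of low genes. Paralog-to-parent log2 ratios were tested by exact permutation of the one-way F statistic over all partitions into 5 lines of 2, with adjustment over 6 pairs. No p is given for RPL39L and RPL10L, which passed the filter only through the lines that express them and are otherwise at or near 0, where the pseudocount sets the ratio. On simulated data with 200 of 17520 genes shifted by 2 on the log2 scale, the LNCaP contrast recovered 95.5% with 4.5% of calls false, and the F-test 85.5% with 2.84%. The shifts were in LNCaP only and the noise was independent between genes. In the data the F-test called 90.8% of tested genes, so these rates check the code and need not hold for the calls here.

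Named genes were the paralogs and parents, the 10 widest ranges, the 2 largest increases and decreases per line with no overlap with the other 8 samples, the 5 highest and 5 lowest levels, 8 genes with known further roles, and the 2 widest ranges of each list. RPL13, RPS2, RPS7, RPL28 and the genes named with their pseudogenes were chosen after their values were seen. Some named genes are not reported here. The members and lists were chosen with earlier results of these data known. Coordinates and start windows are RefSeq's for GRCh38.p14, with coordinates for all 84 members and windows for 67. Python 3.11.15, numpy 2.4.6, pandas 2.3.3 and matplotlib 3.10.9 were used. The alternatives tried were 0.1 as pseudocount, no filter or one at 5 TPM, the other 4 scalings, no variance trend, a fold threshold, the repeat number as a covariate, and each sample left out in turn.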

Additional observations from a re-analysis of the deposited data

How the results depend on the processing

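The scaling of TPM mattered most. Under median-ratio scaling the members higher and lower were 73 and 5 for DUCAP, 51 and 12 for VCAP, 27 and 23 for LNCaP and 8 and 56 for DU145, and 3 were higher in PC3. Of all tested genes 26.7 and 33.7% were so called for DUCAP, 28.0 and 33.3% for VCAP, 27.4 and 32.8% for LNCaP and 30.0 and 32.3% for DU145, and 32.0% were higher in PC3. Without MT- genes 6 were lower in DUCAP, 47 higher and 15 lower in VCAP, and 8 higher in PC3, with backgrounds of 47.8%, 24.0%, 36.2% and 35.3%. With the members' summed TPM set equal, 22 were higher and 37 lower in DUCAP, 31 higher in DU145, and 32 higher and 34 lower in PC3, where 5.97, 74.9, 48.6, 61.6 and 15.5% of all tested genes were. That scaling removes any shift of the members as a whole by construction, and the core median turned to −0.045 in DUCAP and 0.030 in DU145. RPL38 in DUCAP turned to 0.11 under median-ratio scaling, and the cause was not tested. With a log2 difference of at least 1 the counts were 11 and 3 for DUCAP, 2 and 7 for VCAP, 10 and 2 for LNCaP, 4 and 7 for DU145, and 3 and 23 for PC3, and the shares of all tested genes 4.62 and 25.3%, 7.77 and 19.2%, 18.2 and 9.90%, 21.2 and 7.94%, and 23.8 and 9.13%.

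With each sample left out in turn, where the lone sample of a line is assumed to vary like the others, members differing among the lines numbered 78 to 83. The range was 39 to 49 higher and 6 to 14 lower for DUCAP, 22 to 37 and 21 to 27 for VCAP, 32 to 53 and 7 to 17 for LNCaP, 12 to 18 and 32 to 37 for DU145, and 10 to 14 and 44 to 59 for PC3. Of 28 differences of named members, 26 kept their direction and call under every alternative. Most of the 28 were chosen for large differences without overlap in these same samples, so their stability was favored by the choice. The 28 include RPL10L in LNCaP and RPL39L in DU145 and PC3, which passed the filter only through the lines that express them. The ratios of RPS27L, RPL22L1, RPL7L1 and RPL26L1 to their parents kept an adjusted p of 0.0423 or less.

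The repeat numbers did not pair the samples: over 10 pairs of lines the deviations of same-numbered samples correlated at a mean of 0.00922 (−0.191 to 0.249). With the replicate block the core medians were those of the main fit, 0.46 in DUCAP, 0.18 in VCAP, 0.32 in LNCaP, −0.21 in DU145 and −0.67 in PC3. Each line holds both repeat numbers, so this block cannot move them and the match is no check.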

Other observations

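A row of a ribosomal protein pseudogene, RPL31P11, was restricted to DU145, with 137 and 106 TPM there, 0.03 TPM in 1 PC3 repeat and listed at 0 in the other 7 samples. It was noticed after the values were seen, and its relation to reads of RPL31 was not tested. Another row, RPL23AP42, ranged from 495 TPM in PC3 to 2556 TPM in DUCAP, and its parent RPL23A from 761 to 3625 TPM in the same lines.

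LARP1, which binds TOP mRNAs, was at 227 and 254 TPM in DUCAP and 212 and 230 in VCAP, at 142 and 154 in LNCaP, at 93.6 and 128 in DU145, and at 69.6 and 55.9 in PC3. MTOR, the kinase upstream of it, was at 11.9 and 14.3 TPM in DUCAP and at 26.2 and 25.6 in PC3. EEF1A1, the most abundant elongation factor, was at 13653 and 13287 TPM in DUCAP and 5071 and 4583 in PC3. These genes were chosen after their values were seen and are given as values only.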
